A study of Homo sapiens with 8 samples.

Results

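The histone cluster genes encode the bulk histones of the nucleosome, and in these data they were the genes whose array symbol begins with HIST1H, HIST2H, HIST3H or HIST4H. Only probe sets annotated with a single gene symbol were used, and the symbol itself gave the histone type and the cluster. The rule found 66 genes of 18259 with a single-symbol probe set. They comprised 6 H1, 16 H2A, 18 H2B, 12 H3 and 14 H4 genes, of which 55 lay in cluster 1, 7 in cluster 2, 3 in cluster 3 and 1 in cluster 4. A total of 64 members, from 142 of their 192 probe sets, passed the filter on dim probe sets and were tested among 17879 genes. HIST1H1B, a linker histone gene, and HIST1H2BB, an H2B gene, had no probe set above the filter and were not tested. A further 6 probe sets carried a pair of histone symbols, for duplicated H4 and H2A genes of cluster 2, and were left out.

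RNA came from HEK293 cells, a human embryonic kidney line, hybridised to human exon arrays with biotin label. There were 4 groups of 2 biological replicates each: unstimulated control cells, control cells given epidermal growth factor (EGF) at 50 ng/mL for 1 h, and cells labelled shELL, unstimulated or given EGF in the same way. The protocol names the control cells as wild type and the shELL cells as an ELL knockdown. ELL is a factor that raises the elongation rate of RNA polymerase II. The labels describe no scrambled-hairpin line, so the cells compared differ in everything that separates the shELL line from its parent, and the sources used here do not say how many clones the shELL line holds. The comparisons address whether the EGF response differs when ELL is targeted.

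Core histones H2A, H2B, H3 and H4 form the octamer around which DNA is wrapped, and H1 binds the linker DNA between nucleosomes. The clustered genes are made mostly in S phase. Their messages generally lack introns and end in a stem-loop bound by SLBP in place of a poly(A) tail, while unclustered replacement histone genes give polyadenylated messages through the cell cycle. In the clusters many H2A and H2B genes stand head to head and share the stretch of DNA between them. Transcription runs in a nuclear body organised by NPAT, and H2B promoters are known for an octamer motif bound by OCT1, the product of POU2F1. Per the labels' protocols, single-stranded cDNA was made from amplified cRNA. The sources used here do not say how the first strand was primed, and how well messages without a poly(A) tail were labelled was not tested.

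The upstream DNA differed between groups of histone types in the octamer part and in CCAAT, and less in TATAAA. All 66 members matched a current RefSeq symbol and 61 had a promoter in the RefSeq table of GRCh38.p14. The 250 bases before each start were searched on both strands for ATTTGCA (a part of the octamer), TATAAA (the TATA box) and CCAAT. The octamer part stood in 14 of 18 H2B and 11 of 15 H2A promoters, in 1 of 10 H3 promoters, and in 0 of 6 H1 and 0 of 12 H4 promoters. It was held by 3.67% of all 35116 promoters in the RefSeq set. TATAAA stood in 40 of 61 member promoters (65.6%), and in 50% to 73.3% of those of each type, against 10.7% of all promoters. CCAAT stood in every H1, H2A, H2B and H3 promoter searched and in 3 of 12 H4 promoters, against 32.0% of all promoters. The 1 H3 promoter with the octamer part, of HIST1H3D, has the same window as that of the H2A gene HIST1H2AD (chr6:26199244-26199543), so this match is counted under both types. A head-to-head H2A and H2B pair can also share a match, so these promoters are not independent of each other.

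**Figure D1:**
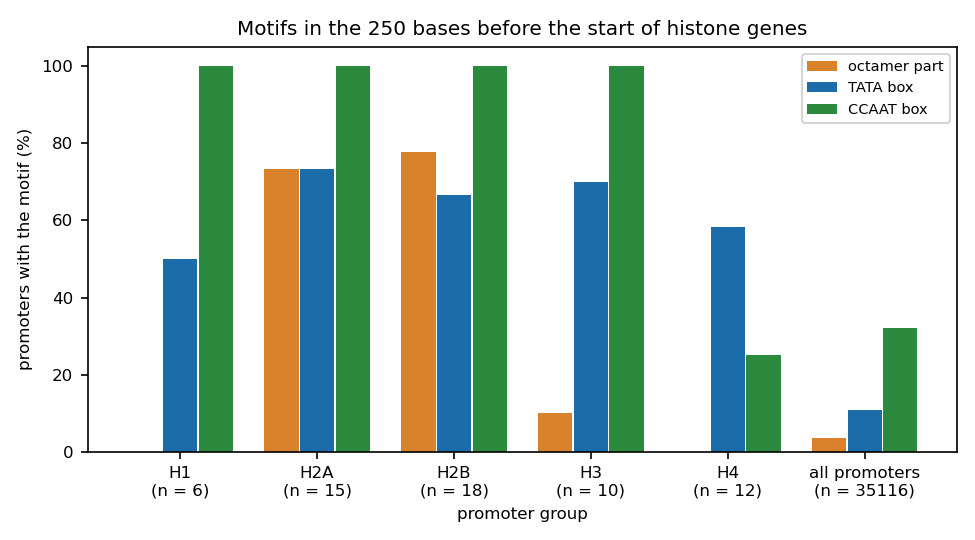
Share of promoters (%, vertical axis) that hold each motif within 250 bases before the start, by histone type and for all promoters of the table (horizontal axis, n promoters below each label). The octamer part stands in 77.8% of H2B and 73.3% of H2A promoters against 3.67% of all promoters, and CCAAT in 25% of H4 promoters against 100% of the promoters of each other type.

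For each type, the 150 bases just before the start of 1 member well above background are shown, with every match to the 3 motifs on either strand in capitals. The stretches lie at chr6:26156179-26156328 (HIST1H1E, plus strand), chr6:27808023-27808172 (HIST1H2AI, plus strand), chr6:26199366-26199515 (HIST1H2BF, plus strand), chr6:26224028-26224177 (HIST1H3E, plus strand) and chr6:26027284-26027433 (HIST1H4B, minus strand) of GRCh38.p14, and come from RefSeq.
HIST1H1E: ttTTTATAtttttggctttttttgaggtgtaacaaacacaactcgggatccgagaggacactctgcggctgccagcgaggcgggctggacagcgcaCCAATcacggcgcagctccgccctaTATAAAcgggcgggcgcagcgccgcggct
HIST1H2AI: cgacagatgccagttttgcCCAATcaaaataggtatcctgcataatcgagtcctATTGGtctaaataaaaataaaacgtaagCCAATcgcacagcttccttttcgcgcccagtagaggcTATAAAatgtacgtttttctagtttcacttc
HIST1H2BF: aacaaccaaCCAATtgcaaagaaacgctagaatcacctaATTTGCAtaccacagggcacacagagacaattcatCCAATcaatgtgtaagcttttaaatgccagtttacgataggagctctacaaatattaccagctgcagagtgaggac
HIST1H3E: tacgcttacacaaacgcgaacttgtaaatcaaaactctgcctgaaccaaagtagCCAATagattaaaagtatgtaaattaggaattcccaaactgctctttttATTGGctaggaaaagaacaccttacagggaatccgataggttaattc
HIST1H4B: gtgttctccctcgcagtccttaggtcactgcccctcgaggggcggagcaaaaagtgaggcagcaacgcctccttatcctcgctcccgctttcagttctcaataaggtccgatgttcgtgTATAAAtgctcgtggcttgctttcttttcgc
The H2B stretch holds the octamer part and no TATAAA, the H2A stretch holds 3 CCAAT boxes in its 2 orientations, and the H4 stretch holds TATAAA alone. A match is a run of letters and no evidence of binding, and the 5 genes were picked for display after their values were seen.

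Gene values are log2 values after quantile normalization of the 8 arrays, summarised over the probe sets of a gene by median polish. They were set against a background of 3.82, the 95th percentile of the values of 216 olfactory receptor genes. The arrays differed in brightness: the 75th percentile of the deposited values ran from 2.17 on shELL with EGF, replicate 1, to 5.16 on unstimulated shELL, replicate 2. The dimmest array, shELL with EGF replicate 1, stood apart. Its correlation with its replicate over 17879 genes was 0.744, where the other 3 replicate pairs gave 0.887 to 0.945. Several of the medians and counts below are given without it as well. ELL, the targeted gene, was at 2.54 and 2.50 in unstimulated control and at 2.93 and 2.63 in unstimulated shELL, below background on these arrays. With EGF it was at 2.57 and 2.88 in control and at 3.86 and 2.65 in shELL, the 3.86 on replicate 1 being the only value above background. No lower ELL value was seen in the cells labelled shELL (shELL minus control averaged 0.40, SE 0.30, not called). With all values but 1 below background, these arrays cannot show whether the ELL message fell, and shELL is used below as the label alone. EGR1, an immediate early gene used to check the EGF treatment, was at 3.80 to 4.14 on the 4 unstimulated arrays and at 7.14 to 7.91 on the 4 EGF arrays. Of 13 HEK293 marker genes 5 were above background in some group, as were 2 of 10 keratinizing epithelium markers and no marker of fibroblasts (10 genes), blood (7 genes) or hepatocytes (4 genes).

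The histone genes were more often above background than genes in general. In unstimulated control cells the mean exceeded background for 27 of 64 members (42.2%), against 19.3% of all genes tested. By type that was 9 of 14 H4, 8 of 16 H2A, 5 of 12 H3, 2 of 5 H1 and 3 of 17 H2B genes. On all 8 arrays 11 members were above background (17.2%, against 10.9% of all genes), and 19 members were above it on none. These 11 were HIST1H1E (H1), HIST1H2AI, HIST2H2AC and HIST3H2A (H2A), HIST1H2BF (H2B), HIST1H3E (H3), and HIST1H4B, HIST1H4E, HIST1H4J, HIST1H4L and HIST4H4 (H4). Probes of different genes bind with different strength, so these counts say which genes gave a signal and do not rank the genes by message.

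**Figure D2:**
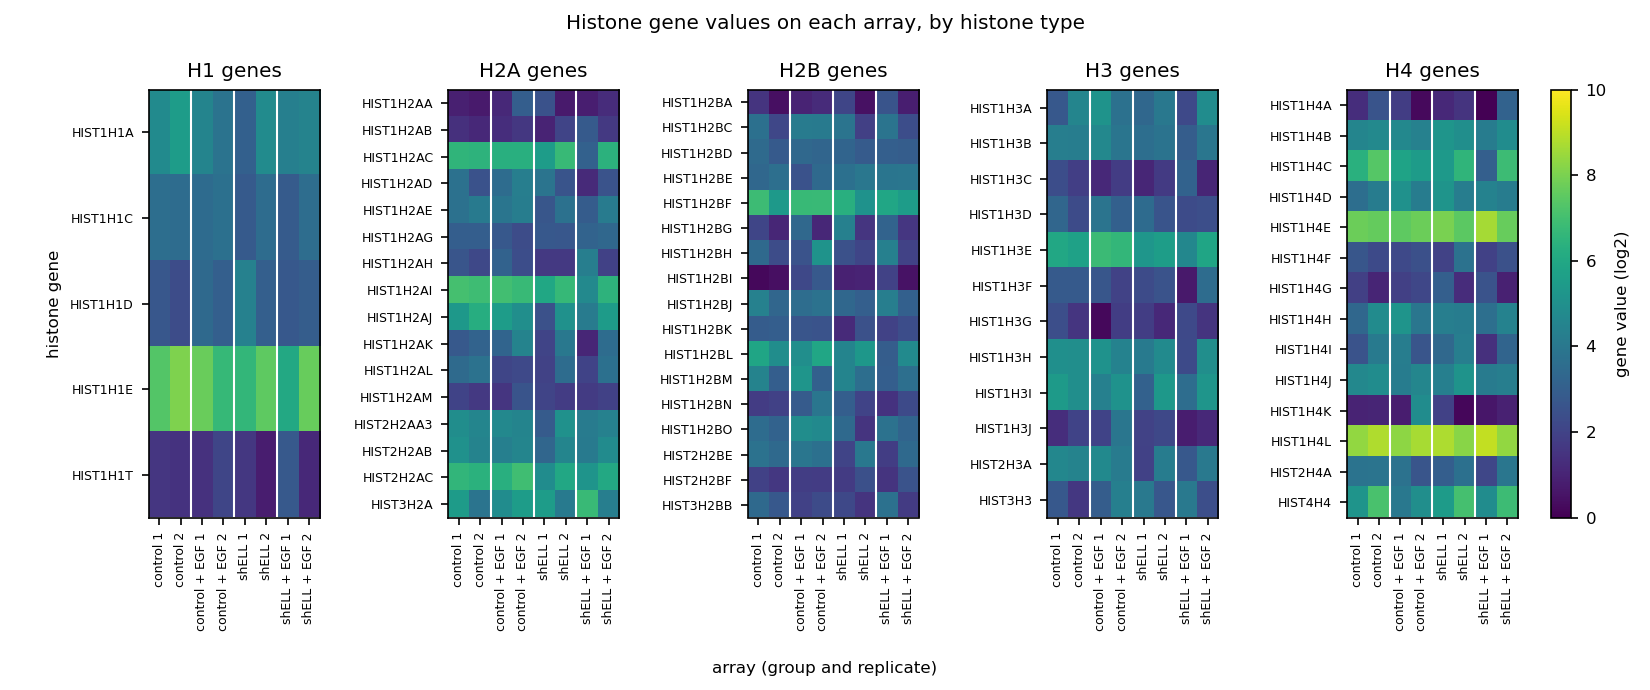
Gene value (log2, colour scale) of the 64 histone genes tested (rows, by histone type) on the 8 arrays (columns, 2 replicates of each group, white lines between groups). Colours can be compared along a row and not between rows. HIST1H4E stayed between 7.49 and 8.66, while HIST1H2AC read 3.10 on shELL with EGF replicate 1 and 5.52 to 6.74 on the other arrays.

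The gene values of the members also varied more between arrays. Their median SD over the 8 arrays was 0.76, against 0.38 for all genes tested. The 64 members rest on 142 kept probe sets and the 17879 genes on 211764, so member values are averaged over fewer probe sets. The part of this in the larger SD was not tested. Without EGF the members' median value was 3.49 and 3.36 in control and 3.18 and 3.65 in shELL. With EGF it was 3.82 and 3.90 in control and 3.0 and 3.53 in shELL. Between replicates the members' values correlated at 0.916 and 0.824 in control without and with EGF, and at 0.766 and 0.640 in shELL without and with EGF. In each shELL group the members' median was lower on replicate 1 than on replicate 2.

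The members with the most kept probe sets of their type and cluster were not all above background. HIST1H1C, the best covered H1 gene, lay between 2.84 and 3.69, below background on every array. HIST2H2BE, an H2B gene of cluster 2, lay between 1.82 and 3.99, and HIST3H2BB, the H2B gene of cluster 3, between 1.5 and 3.74. Single probe sets differed from these gene values: their means ran from 1.28 to 4.96 in HIST1H1C and from 2.43 to 8.17 in HIST2H2BE. HIST2H2AA3, an H2A gene of cluster 2, lay between 2.89 and 5.07 and passed background on 7 arrays. HIST2H4A, an H4 gene of cluster 2, lay between 2.12 and 3.91 and passed it on 2. HIST1H4B, an H4 gene of cluster 1, lay between 4.21 and 5.20, above background throughout.

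The testis histone genes served as a check of what these cells should lack. HIST1H1T, a testis linker histone gene, lay between 0.81 and 2.78. HIST1H2AA and HIST1H2BA, the head-to-head testis H2A and H2B genes, lay between 0.71 and 3.0 and between 0.41 and 2.60. HIST3H3, a testis H3 gene, lay between 1.60 and 4.32 and passed background on 3 arrays. HIST1H4G, the fifth gene of this list, lay between 0.92 and 3.01, and no source used here shows that it is a testis gene. The group mean was above background for none of the 5 in any of the 4 groups.

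No histone gene passed the test in any comparison. The test was limma's moderated test on 4 group means over all 8 arrays, with Benjamini-Hochberg adjustment over all 17879 genes at 0.05. The arrays number 2 a group, which limits the precision: the only gene called in any of the 7 comparisons was EGR1, in the EGF response averaged over both lines. The sections that follow give values and counts, with the same counts over all genes beside them.

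EGF for 1 h in control cells left the histone genes, as a list, where genes in general were. The members' median difference was 0.09 on the log2 scale and that of all genes was 0.09, with 36 members above 0 and 28 below it (43.8%, against 40.8% of all genes). None of 64 members was called (0% of all genes were), and 3 had an unadjusted p under 0.05, all higher (4.69%, against 2.19% of all genes that were higher and 2.90% in either direction). The 2 EGF arrays lay above both unstimulated arrays for 10 members (15.6%, against 25.2% of all genes) and below both for 12 (18.8%, against 15.1%). The median was 0.05 for H1, 0.14 for H2A, 0.23 for H2B, -0.04 for H3 and -0.11 for H4, with 13 of 17 H2B genes higher. With values as deposited the sign turned for H1 (-0.12), and with each array centred on its median it turned for H4 (0.09).

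Single H2B genes gave the smallest p-values in this comparison. HIST1H2BO, an H2B gene of cluster 1, was at 3.53 and 3.13 unstimulated and at 4.91 and 4.76 with EGF, a difference of 1.51 (SE 0.57, unadjusted p = 0.029, adjusted p = 0.99 by limma). Its control groups did not overlap, and the unstimulated values were below background. HIST1H2BI was at 0.21 and 0.41 unstimulated and at 2.15 and 2.78 with EGF, a difference of 2.15 (SE 0.49, unadjusted p = 0.0021, adjusted p = 0.99 by limma), with every value below background. HIST1H2BN was at 1.79 and 1.93 unstimulated and at 2.86 and 3.91 with EGF. Both genes, which were singled out after their values were seen, thus differed in a range where genes without a signal also lie. HIST1H2BO alone of the 3 had a group mean above background.

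Other members named for the size of their difference lay as follows. HIST1H2BH, at 3.41 and 2.31 unstimulated, read 2.55 and 5.15 with EGF. HIST1H2BC read 3.69 and 2.13 unstimulated and 4.15 and 4.10 with EGF. For HIST1H2BH the groups overlapped, and for HIST1H2BC they did not. HIST4H4, the H4 gene that stands alone on chromosome 12, read 5.18 and 7.11 unstimulated and 4.01 and 4.93 with EGF, a difference of -1.68 (SE 0.87). HIST1H4C, an H4 gene of cluster 1, read 6.34 and 7.36 unstimulated and 5.78 and 5.47 with EGF, a difference of -1.22. HIST1H1A, a linker histone gene, read 4.79 and 5.51 unstimulated and 4.51 and 3.80 with EGF. In all 3 the EGF arrays lay below the unstimulated arrays, and the adjusted p was 0.99 by limma for each. The HIST4H4 difference ran from -2.12 to -0.44 over the alternatives tried, and the unstimulated replicates lay far apart.

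In shELL cells EGF gave a members' median of -0.07, against 0.01 for all genes (0.11 against -0.04 without shELL with EGF replicate 1), with 30 members above 0 and 34 below it (53.1%, against 49% of all genes). None of 64 was called (0% of all genes), and none had an unadjusted p under 0.05 (2.35% of all genes had, 1.29% higher and 1.06% lower). The EGF arrays lay above both unstimulated arrays for 2 members (3.13%, against 10.5% of all genes) and below both for 7 (10.9%, against 11.2%). The type medians were 0.02 for H1, 0.23 for H2A, 0.08 for H2B, -0.15 for H3 and -0.40 for H4. Values as deposited put all 5 types below 0, beside an all-gene median of -0.67, and array centring did so beside -0.24; relative to those medians H2A stayed above, H3 and H4 below, H1 turned to below in both, and H2B turned to below with values as deposited.

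The largest negative values among members above background were low on 1 array. HIST1H2AC, an H2A gene of cluster 1, read 5.52 and 6.74 unstimulated and 3.10 and 6.44 with EGF, a difference of -1.36 that was 0.33 without shELL with EGF replicate 1. HIST1H4C read 5.38 and 6.54 unstimulated and 3.01 and 6.86 with EGF, a difference of -1.03 that was 0.97 without that array. HIST1H2BL, an H2B gene, read 4.52 and 5.31 unstimulated and 2.94 and 4.78 with EGF, a difference of -1.05 that was -0.14 without it. In these 3 genes replicate 1 with EGF was the lowest of all 8 arrays. HIST1H3H, an H3 gene, showed the same order, with 2.26 on that array and 4.09 to 5.08 on the other 7, and its difference of -0.82 was 0.40 without it. On the positive side HIST1H2AJ, an H2A gene, read 2.46 and 5.04 unstimulated and 4.17 and 5.50 with EGF. HIST3H2A, the H2A gene of cluster 3, read 5.54 and 4.11 unstimulated and 6.77 and 4.29 with EGF. HIST2H2AB, an H2A gene of cluster 2, read 3.30 and 4.57 unstimulated and 4.14 and 4.83 with EGF. All 3 overlapped between the groups.

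Averaged over both lines, EGF gave a members' median of 0.05, equal to that of all genes at this rounding, with 28 of 64 below 0 (43.8%, against 43% of all genes). Without shELL with EGF replicate 1 the members' median was 0.10 against 0.01 for all genes, with 21 of 63 below 0. None of 64 was called, where 0.00559% of all genes, EGR1 alone, were. HIST1H2BI and HIST1H2BO were higher at an unadjusted p under 0.05 (3.13%, against 2% of all genes higher and 3% in either direction). No member's 4 EGF arrays all lay above, or all below, the 4 unstimulated arrays, where 1.55% and 1.08% of all genes did so.

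**Figure D3:**
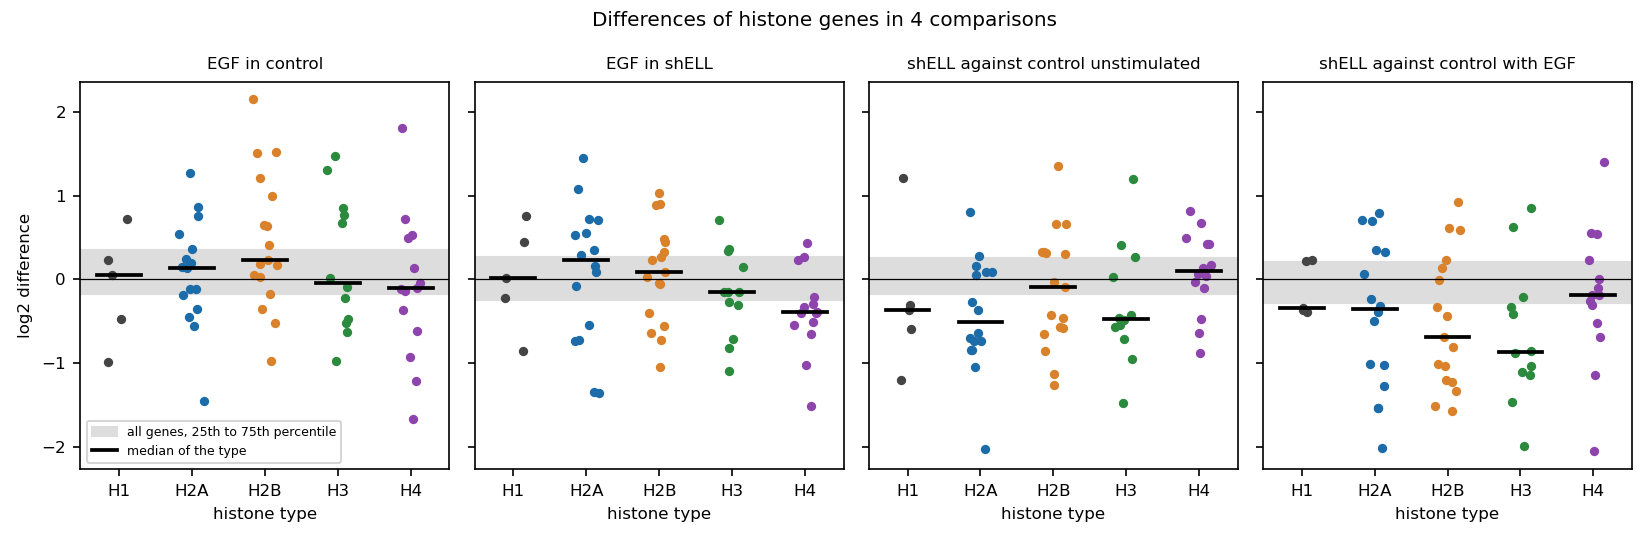
Log2 difference (vertical axis) of each tested histone gene in 4 comparisons (panels), by histone type (horizontal axis, 1 point per gene). Black bars are type medians and the grey band spans the 25th to the 75th percentile of all genes. In shELL against control with EGF the H3 median is -0.87 and the H2B median -0.69, while the 2 EGF panels have type medians between -0.40 and 0.23.

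Between the cell lines the histone genes lay lower in shELL than genes in general, as a list and without a called gene. Averaged over both conditions the members' median difference of shELL minus control was -0.33, against 0.00 for all genes, and 47 of 64 members were below 0 (73.4%, against 49.5% of all genes). None of 64 was called (0% of all genes). Probe set by probe set, 2.82% of the members' probe sets had an unadjusted p under 0.05, against 2.54% of all probe sets. By gene, such a p was found for 1 higher member (1.56%, against 1.11% of all genes) and 7 lower members (10.9%, against 1.48%). That count of lower members rested on the scaling and on single arrays: it was 0 with values as deposited, 1 with array centring, 0 without unstimulated control replicate 1, 3 without control with EGF replicate 1 and 4 without shELL with EGF replicate 1. With values as deposited the members' median was -0.19 beside 0.15 for all genes, and with array centring -0.38 beside -0.05, so the distance from the all-gene median was -0.33 to -0.34 under the 3 scalings. Leaving out 1 array at a time gave member medians of -0.46 to -0.22, and -0.25 without shELL with EGF replicate 1. By array, the members' median value was 3.36 to 3.90 in control. In shELL it was 3.18 and 3.0 on the replicate 1 arrays, and 3.65 and 3.53 on replicate 2, within the control range. Leaving out 1 array at a time does not remove both low arrays. Their olfactory receptor medians were the highest of the 8 arrays, 2.12 and 2.44, against 1.18 to 1.98 in control. GAPDH, a glycolytic gene, was lowest on the same arrays, at 6.64 and 6.61, against 6.85 to 9.10 in control. Among the 36 members above background in a group compared the median was -0.57, with 29 below 0. The members were not compared with other genes of like level. Whether these array differences bear on the histone result was not tested. Members share arrays and, in some cases, sequence, so 64 genes are not 64 independent readings. In bulk samples fewer cells in S phase and less message per cell cannot be told apart.

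The difference was seen in 4 of the 5 histone types. H3 genes had a median of -0.54, with 10 of 12 below 0. H2A genes had a median of -0.46, with 13 of 16 below 0, H1 genes -0.38 with 4 of 5, and H2B genes -0.33 with 13 of 17. H4 genes had a median of 0.01, with 7 of 14 below 0. Under values as deposited and array centring the medians of H1, H2A, H2B and H3 stayed below the all-gene median by 0.35 or more, and H4 lay at -0.01 relative to it in both. Whether the types differ from each other was not tested.

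By cluster, the 7 members of cluster 2 had a median of -0.53 with 6 below 0, and the 53 tested members of cluster 1 a median of -0.32 with 40 below 0. In the upper part of cluster 1, above 27 Mb of the array's coordinates, 18 of 20 members were below 0 with a median of -0.54. In the lower part 22 of 33 were, with a median of -0.21. The 3 genes of cluster 3 had a median of 0.25, and HIST4H4 of cluster 4 was at 0.77.

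Only a few members separated all 4 shELL arrays from all 4 control arrays. That held for 3 members lower in shELL (4.69%, against 1.45% of all genes) and for 1 higher (1.56%, against 1.07%), and the 4 are named because of it, after their values were seen. HIST2H2AC, an H2A gene of cluster 2 on chromosome 1, read 6.56, 6.40, 6.31 and 6.92 on the control arrays and 4.88, 5.98, 5.16 and 6.02 on the shELL arrays. Its difference was -1.04 (SE 0.33, 95% interval -1.80 to -0.29, unadjusted p = 0.013, adjusted p = 1.0 by limma) and ran from -1.31 to -0.61 over the alternatives. HIST1H2AI, an H2A gene of cluster 1, read 7.06, 6.88, 6.98 and 6.74 in control and 5.97, 6.68, 4.71 and 6.46 in shELL, a difference of -0.96 (SE 0.38) that was -0.57 without shELL with EGF replicate 1. HIST1H2BK, an H2B gene whose gene value was below background on every array, read 2.58 to 2.99 in control and 1.20 to 2.47 in shELL. At its own locus on chromosome 6 the lines overlapped, as described below. HIST1H2BE, an H2B gene close to background, read 3.33, 3.65, 2.54 and 3.40 in control and 3.68, 3.95, 3.87 and 3.92 in shELL, a difference of 0.63 (SE 0.25) that ran from 0.11 to 0.86 over the alternatives.

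**Figure D4:**
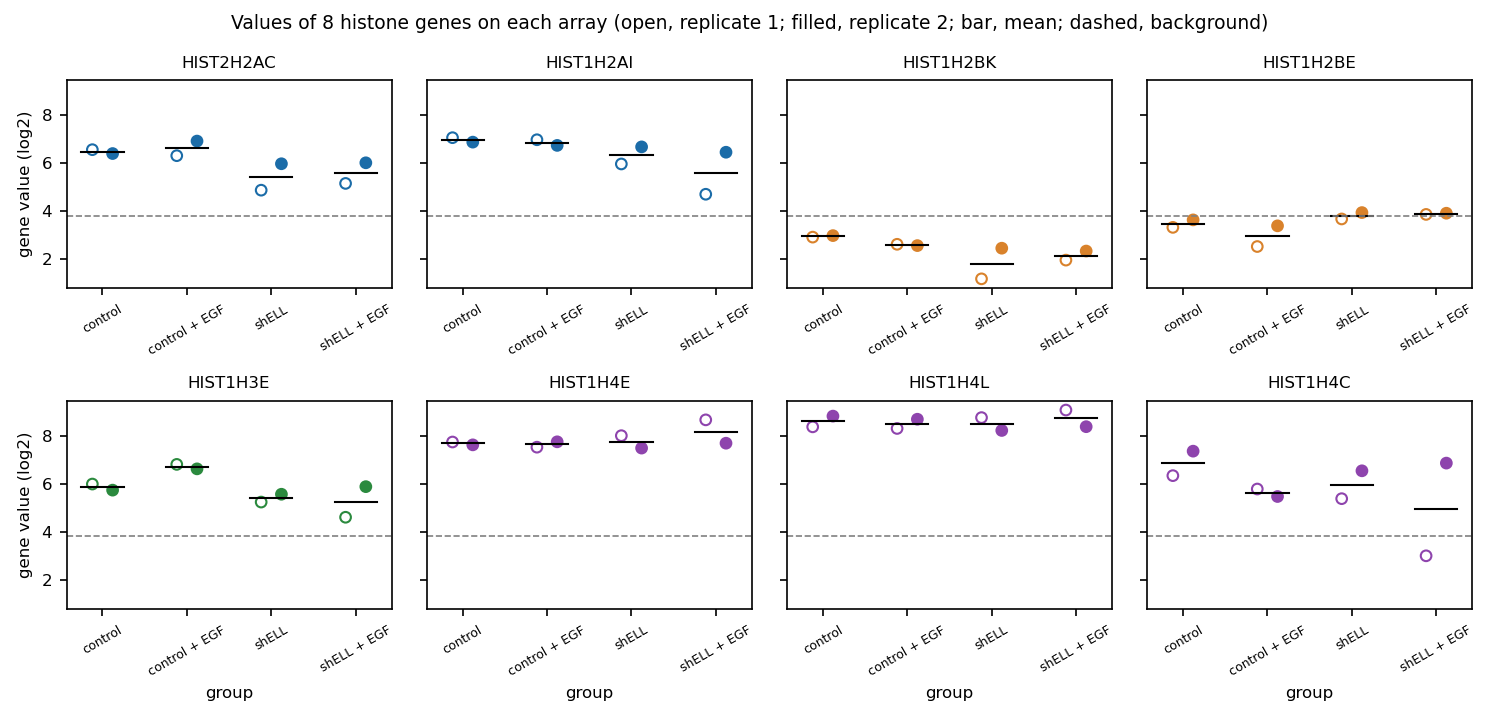
Gene value (log2, vertical axis) of 8 histone genes on each array, by group (horizontal axis). Points are arrays (open, replicate 1; filled, replicate 2), bars are group means of 2 arrays and the dashed line is the background of 3.82. HIST2H2AC lies at 6.31 to 6.92 in control and 4.88 to 6.02 in shELL, and HIST1H4C ranges from 3.01 to 6.86 between the replicates of shELL with EGF.

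HIST1H3E, an H3 gene singled out for its p-value, had the smallest p in this comparison. Without EGF it read 5.99 and 5.74 in control and 5.24 and 5.57 in shELL. With EGF it read 6.81 and 6.62 in control and 4.61 and 5.88 in shELL. Within each condition both shELL arrays lay below both control arrays. The averaged difference was -0.96 (SE 0.30, unadjusted p = 0.013, adjusted p = 1.0 by limma), and it was -0.66 without shELL with EGF replicate 1. HIST2H3A, an H3 gene of cluster 2, had -1.26 (SE 0.51), or -0.55 without that array, HIST1H2AJ had -1.22, and HIST1H2BO had -1.09 (SE 0.40). These were the most negative among members above background. HIST1H2AJ owed much to unstimulated shELL replicate 1, at 2.46, where its other 7 arrays were at 4.17 to 6.22. HIST2H3A read 4.15 to 4.75 on the control arrays and 1.94, 4.20, 2.77 and 4.05 on the shELL arrays, so both low values came from replicate 1.

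On the other side, HIST1H4E, an H4 gene, read 7.52 to 7.75 on the control arrays and 7.49 to 8.66 on the shELL arrays. HIST1H4L, an H4 gene singled out after its values were seen, was at 8.22 to 9.07 on all 8 arrays. Both H4 genes stayed well above background on every array, each by 1 probe set. HIST1H4E has no other, and HIST1H4L kept 1 of its 3, the others averaging below the filter on dim probe sets. HIST4H4 read 4.01 to 7.11 in control and 4.87 to 7.06 in shELL, in overlapping ranges. HIST1H1E, the H1 gene above background throughout, read 7.31, 8.07, 7.71 and 6.71 in control and 6.64, 7.53, 6.05 and 7.66 in shELL, also overlapping.

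The 2 conditions share no arrays, and their member medians were similar only after quantile normalization. Unstimulated and with EGF, they were 0.31 and -0.69 with values as deposited, and -0.03 and -0.74 with array centring. Relative to the all-gene median these were -0.18 and -0.51, and -0.21 and -0.48. The values that follow are after quantile normalization unless another scaling is named. Unstimulated, the members' median was -0.28 against 0.04 for all genes, with 37 of 64 below 0 (57.8%, against 45.4% of all genes). None was called (0% of all genes), and an unadjusted p under 0.05 was found for 1 higher member (1.56%, against 0.822% of all genes) and 2 lower ones (3.13%, against 0.503%), where 1.33% of all genes had one in either direction. The arrays did not overlap for 6 members higher in shELL (9.38%, against 15.2% of all genes) and 14 lower (21.9%, against 12.9%). With values as deposited the members' median was 0.31 beside 0.49 for all genes, and with array centring it was -0.03 beside 0.18, so the sign against 0 depended on the scaling while the members stayed below the all-gene median. Among members above background HIST1H2AJ gave the most negative value, -2.04 (SE 0.81), followed by HIST2H3A at -1.48 and HIST1H1A at -1.21. HIST1H4D at 0.82, HIST1H4B at 0.43 and HIST1H2BM, an H2B gene, at 0.33 were the most positive among members above background.

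With EGF, the members' median was -0.36 against -0.04 for all genes, with 44 of 64 below 0 (68.8%, against 54.2% of all genes). None was called (0% of all genes), while 9 lower members had an unadjusted p under 0.05 (14.1%, against 2.13% of all genes) and 2 higher members did (3.13%, against 1.09%). The shELL arrays lay below both control arrays for 18 members (28.1%, against 14.5% of all genes) and above both for 3 (4.69%, against 9.69%). Without shELL with EGF replicate 1 the members' median was -0.30, and 2 lower and 2 higher of 63 members had such a p, where 990 of 17857 genes did. With values as deposited 1 member was lower at such a p. HIST1H3E gave -1.47 (SE 0.43, unadjusted p = 0.0088, adjusted p = 1.0 by limma), or -0.84 without that array. HIST1H2AD, an H2A gene, read 3.52 and 4.26 in control and 1.17 and 2.57 in shELL, a difference of -2.02 that was -1.41 without that array. HIST1H2AK, an H2A gene, read 3.22 and 4.47 in control and 1.08 and 3.53 in shELL, in overlapping ranges, and its difference of -1.54 was -0.34 without that array. HIST4H4 at 1.40, HIST1H2BE at 0.93 and HIST1H4E at 0.54 were the most positive among members above background.

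The EGF response of shELL minus that of control, the interaction, called no member (0% of all genes). The members' median was -0.13 against -0.07 for all genes, with 35 of 64 below 0 (54.7%, against 56.3% of all genes). An unadjusted p under 0.05 was found for 1 higher member (1.56%, against 0.559% of all genes) and 5 lower ones (7.81%, against 1.37%). Without shELL with EGF replicate 1 these were 3 higher and 1 lower, and the median was 0.025 against -0.13 for all genes. Those 6 had adjusted p-values of 1.0 by limma, and 5 of them were below background in every group. The exception was HIST1H2AD at -2.11 (SE 0.91, unadjusted p = 0.0496), or -1.5 without that array. The comparisons between lines and those of EGF share arrays, so their values are not independent of each other.

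Neighbouring H2A and H2B genes that stand head to head were compared next. The probe-set positions in the deposited annotation, whose genome build is not named, placed 12 such pairs 248 to 619 bases apart. In shELL against control averaged, both genes of a pair had the same sign in 8 of 12 pairs. Since 13 of 16 H2A and 13 of 17 H2B genes were below 0 there, unpaired H2A and H2B genes also often share a sign. Whether pairs do so more often was not tested. HIST2H2BE and HIST2H2AC were at -0.89 and -1.04. HIST1H2AD and HIST1H2BF were at -0.97 and -0.73. HIST1H2BL and HIST1H2AI were at -1.02 and -0.96, where the HIST1H2AI value also holds probe sets from a second place in the genome, described below. In the other direction HIST1H2BG was at 0.74 and its partner HIST1H2AE at -0.60, and HIST1H2BJ was at -0.33 beside 0.22 for HIST1H2AG. For EGF the pairs had the same sign in 7 of 12 in control and in 5 of 12 in shELL.

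Many members rest on few probe sets, and these did not always move alike. A single kept probe set carried 23 members, and 19 had 2. Among the 41 members with 2 or more, the probe-set means of a gene differed by a median of 2.31 and by up to 7.53 log2 units. The sign of the difference between the lines was shared by all probe sets of 21 members and was mixed in 20. Fitted probe set by probe set, 0 of 142 were called in each of the 7 comparisons (0% of 211764 probe sets), with 4 of 142 member probe sets (2.82%) at an unadjusted p under 0.05 in shELL against control averaged, close to the 5369 of 211764 over all probe sets (2.54%).

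Some symbols pooled probe sets from several places in the genome. That held for 8 members: HIST1H2AI, HIST1H2BD, HIST1H2BK, HIST1H3I, HIST1H4J, HIST2H2AA3, HIST2H3A and HIST2H4A. HIST1H2BD, an H2B gene, read 1.84 to 3.83 on the 8 arrays at its own locus. Its probe set on the opposite strand at chr6:27775355-27775391, beside HIST1H2BL, read 8.15 to 8.86. The gene value tested, 2.83 to 3.45, was taken over the kept probe sets of both places. HIST1H2AI read 5.67 to 7.06 at its own locus, and in control 6.71 to 7.25 at the second locus, beside HIST1H2AJ, where the shELL arrays read 5.19, 6.73, 3.84 and 6.32. At its own locus the 4 shELL arrays, at 7.06, 6.66, 5.67 and 6.90, overlapped the control arrays, and at the second locus 1 shELL array lay within the control range, so neither locus alone separated the lines as the gene value did. Of the 3 probe sets of HIST1H2BK, 1 lay on chromosome 21. That probe set read 2.75 to 4.12 in control and 1.06 to 2.47 in shELL. At the chromosome 6 locus control read 3.57, 4.03, 2.41 and 2.94. There shELL read 2.67, 3.24, 2.49 and 3.31, so the separation of the gene value was not seen at that locus. With the loci kept apart, 73 features gave a median of -0.32 in shELL against control averaged with none called.

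Probe sets of 1 symbol were then set side by side, whether or not they lay at the same gene. In 7 pairs, those of equal length lay on opposite strands, in HIST1H4J, HIST2H2AA3 and HIST2H4A, and 2 of the pairs shared a minus-strand probe set. The median absolute difference within a pair over the 8 arrays was 0.38 to 1.01. The HIST1H4J pair set a plus-strand probe set against one at chr6:27799216-27799252, beside HIST1H4K. In 1 pair of HIST2H2AA3 the plus-strand probe set, at chr1:149858621-149858645, lay between probe sets of HIST2H2AC, and this pair gave the largest single difference, 5.32 in control with EGF replicate 2. Over the other 6 pairs the largest was 4.61, for HIST2H2AA3 in unstimulated shELL replicate 1. The pair of HIST2H4A probe sets 176 bases long differed by a median of 0.38 and by at most 1.36.

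**Figure D5:**
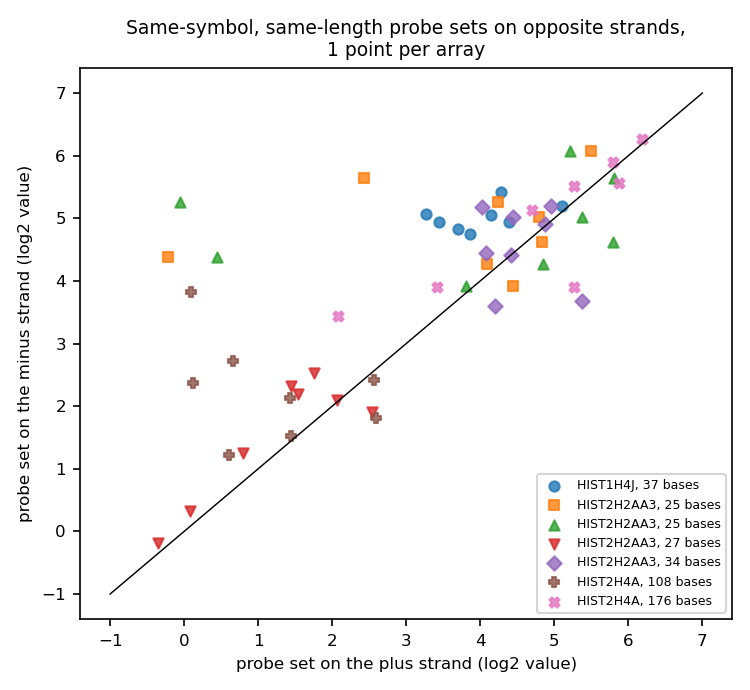
Log2 value of a probe set on the plus strand (horizontal axis) against that of a probe set of the same gene symbol and length on the minus strand (vertical axis), 1 point per array and pair, 7 pairs over 8 arrays. The line marks equal values. The median distance between paired values is 0.38 to 1.01, and the farthest point, 5.32 units away, is of the HIST2H2AA3 probe set that lies among those of HIST2H2AC.

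Probe sets 3′ of the last probe set of a gene's main transcript were read separately, because some clustered genes also give longer, polyadenylated messages. There were 16, in 7 members, at 23 to 14408 bases past that last probe set, and they were picked after the annotation and values had been seen. The distances do not run from the end of the transcript, so the nearest of these probe sets may lie within the usual message. A group mean above the probe-set background of 3.11 was found for 3 of them, in HIST1H2BD, HIST1H2BJ and HIST1H3H. The HIST1H3H probe set, at a distance of 49 bases, read 3.90 and 3.79 in control and 5.30 and 4.01 in shELL without EGF. With EGF it read 4.31 and 4.53 in control and 1.49 and 3.67 in shELL. The HIST1H2BJ probe set, at a distance of 6142 bases, read 3.29 to 4.41 in control and 2.07 to 4.47 in shELL. The 3 probe sets past HIST1H2AC, at 13430 bases and more, stayed at 1.44 or below on every array. HIST1H2AG, with 8 kept probe sets the best covered H2A gene of cluster 1, had a gene value of 2.31 to 3.32 on the 8 arrays, below background throughout. Its kept probe sets had means from 1.29 to 7.92 and included dim ones past the last probe set of its main transcript. The gene value therefore does not show that the gene gave no signal.

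Genes that serve the clustered histone genes were read from lists, and none of their members was called in any comparison. Values of these genes are group means of 2 arrays, for genes chosen as familiar examples of each list. Of 12 genes of histone transcription and the locus body, 6 were above background in all 4 groups, and shELL minus control averaged had a median of -0.15 with 10 of 12 below 0. NPAT, the cyclin E-CDK2 substrate that drives histone transcription, was at 2.63 to 2.71 in the 4 groups, below background. CCNE1, cyclin E1, was at 4.38 in unstimulated control and at 4.21 in unstimulated shELL. Of 20 genes of histone mRNA processing and decay, 3 were above background in all groups, with a line median of -0.09 and 11 below 0. SLBP, which binds the stem-loop, was at 3.40, 2.38, 2.87 and 2.94 in control, control with EGF, shELL and shELL with EGF.

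Genes of S phase and DNA replication, whose activity accompanies histone synthesis, had a line median of -0.13 with 22 of 31 below 0, and none was called. The 4 control arrays had list medians of 4.12, 4.30, 3.94 and 3.74, and the 4 shELL arrays 3.72, 4.0, 3.58 and 4.11. The part of this difference in the histone result was not tested. PCNA, the replication clamp, was at 5.51 in unstimulated control and 5.14 in unstimulated shELL. MCM7, a subunit of the replicative helicase, was at 6.11 and 5.64. RRM2, a subunit of ribonucleotide reductase, was at 4.98 and 4.86.

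Replacement histone variants, which are made outside S phase as well, had a line median of -0.10 with 11 of 17 below 0, and none was called. H2AFZ, which encodes H2A.Z, was at 6.49, 6.76, 6.56 and 5.30 in control, control with EGF, shELL and shELL with EGF. H3F3A and H3F3B, which both encode H3.3, were at 6.07 and 7.02 in unstimulated control and at 5.84 and 6.52 in unstimulated shELL. The 19 histone chaperones tested had a median of 0.03 with 9 below 0. ASF1B, a chaperone of H3 and H4, was at 5.13 in unstimulated control and 5.39 in unstimulated shELL. ELL and its partners in elongation complexes, 11 genes, had a median of -0.06 with 7 below 0, and 2 of them were above background in all groups.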

How the data were processed

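The authors deposited log2 probe-set values of 8 Affymetrix human exon arrays, made with Expression Console and RMA per the submitters' processing notes; no source used here gives versions or a genome build. A deposited table of log2 group averages equalled the means of these values within 5e-05 and supplied symbols, accessions and positions. The 287329 probe sets were quantile normalized between arrays. Probe sets with 1 symbol and a mean at or above the 25th percentile (1.16) were kept (211764) and summarised per gene by median polish. Group means were fitted with limma 3.58.1 in R 4.3.3 over all 8 arrays, with Benjamini-Hochberg adjustment over 17879 genes at 0.05, in 7 comparisons; the script was tested on simulated data.

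The members and gene lists were chosen with earlier results of these data known. Members named were, per type and cluster, the one with most kept probe sets, the 3 highest and 3 lowest differences per comparison among members above background, and the testis list; others are said to be singled out or were picked as examples of a list. The second replicates are labelled biological replicates, with no culture or day named, so the replicate number was not taken to pair samples: deviations from group means of same-numbered arrays correlated at -0.28 to 0.49. Alternatives covered scaling, filters, gene summary, variance model, array weights, a replicate block, each array left out, and, added after seeing the data, members split by locus or above background.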

Additional observations from a re-analysis of the deposited data

How the results depend on the processing

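No histone gene was called under any alternative run, in any of the 7 comparisons; over 5571 alternative values of the members named, the lowest adjusted p was 0.11 (HIST1H3H, EGF in shELL). Of the named differences 194 of 322 changed sign under at least 1 alternative, so single directions of uncalled members are not stable. The count of all genes called for EGF in control was 0, and it became 1 with no filter on dim probe sets, with at least 3 probe sets a gene, with array weights and with only the arrays compared. For EGF in shELL it became 1 with no filter and with at least 3 probe sets. For EGF averaged it was 1, became 0 with values as deposited and with array centring, and ran from 0 to 1 when 1 array was left out. Member medians moved by more than the SD between replicates of 0.25 as follows, with the cause not tested. With values as deposited they were -0.95 for EGF in shELL (all genes -0.67), -0.45 for EGF averaged (-0.35), 0.31 for shELL against control unstimulated (0.49), -0.69 with EGF (-0.18) and -1.08 for the interaction (-0.67). Under array centring they were -0.49 for EGF in shELL (all genes -0.24), -0.030 for the lines unstimulated (0.18), -0.74 with EGF (-0.26) and -0.86 for the interaction (-0.44). With at least 3 probe sets a gene, which left 22 members, they were -0.56 for the lines unstimulated and 0.22 for the interaction. Among 34 members above background the lines with EGF gave -0.69. Leaving out 1 array gave -0.36 to 0.11 for EGF in shELL, -0.62 to -0.23 for the lines with EGF and -0.41 to 0.027 for the interaction; the ends at -0.36, -0.62 and -0.41 were without shELL with EGF replicate 2. With the replicate number as a block the calls stayed at 0 members in every comparison, and members lower in shELL averaged at an unadjusted p under 0.05 numbered 12 in place of 7 and higher ones 3 in place of 1. That count of lower members was 0 with values as deposited, 1 with array centring and 0 to 13 when 1 array was left out. Signal limits the reading: 19 members were above background on no array.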
